A study of Arabidopsis thaliana with 3 samples.

Results

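The chloroplast and mitochondrial genes of Arabidopsis thaliana were taken as every gene whose locus identifier starts with ATCG or ATMG. They gave 60 of the 62909 splicing events listed in first true leaves, in 39 of 14496 genes. The leaves came from untreated wild-type Col-0 plants grown in a chamber under long days, and each RNA sample was a pool of leaves. All 3 libraries belong to 1 group, so the study holds no contrast of genotype, treatment or time. The labels call the libraries replicates without naming plantings or plants, so the spread between them may be technical, and every p-value below measures that spread or read-counting error only. Total RNA was cleared of DNA with a DNase before TruSeq library construction. The libraries held 33164071 to 62677541 reads over 46345 listed junctions between neighbouring exons, and the leaf mesophyll marker genes RBCS1A, LHCB1.3, CA1 and RCA had 14 to 53 listed events each.

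Both organelles keep small genomes of bacterial descent. Most of their introns are group II introns, which fold into catalytic RNA but need nucleus-encoded helper proteins to be removed in plants. They are not removed by the spliceosome that processes nuclear transcripts. Unspliced organellar transcripts are a known feature of plant leaves. The chloroplast genome carries an inverted repeat, so the genes inside it are present in a pair of copies.

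The 7 pairs of chloroplast identifiers in the inverted repeat had read totals that differed by at most 0.377% in any library, and each pair was counted once. The pairs were ATCG00830 with ATCG01310, ATCG00890 with ATCG01250, ATCG00905 with ATCG01230, ATCG00920 with ATCG01210, ATCG00930 with ATCG01200, ATCG00940 with ATCG01190 and ATCG00950 with ATCG01180. This left 49 events. Of these, 37 were retained introns (19 in the chloroplast and 18 in the mitochondrion), 7 were junctions at which both splice sites moved, and 5 were removals from inside ribosomal RNA. The labels do not define the codes of these classes, which were read from the exon numbers and coordinates. The level of an event was its reads in percent of all reads counted at its junction, or in its gene for the removals. Each listed event had at least 1 such read in every library, so an intron with no retained read would not be listed.

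The reference annotation lists none of the 39 identifiers, and 15 of them could be tied to a gene by other evidence. Coordinates tied ATCG00180 to rpoC1 (a subunit of the plastid RNA polymerase), ATCG00670 to clpP (the plastid-encoded proteolytic subunit of the Clp protease), ATCG00830 to rpl2 (ribosomal protein L2), ATCG00920 to the 16S and ATCG00950 to the 23S ribosomal RNA. Intron lengths tied 3 mitochondrial identifiers to subunits of respiratory complex I (NADH dehydrogenase), with a difference of up to 2 nt allowed. ATMG00580 matched nad4 exactly (3081 and 1942 nt). ATMG00513 (829 nt) was near nad5 (831 nt), and ATMG00285 (980 nt) was near nad2 (981 nt) or nad5 (978 nt). ATMG00510 was tied to nad7, another complex I subunit, only by its number of introns, which is weaker evidence. The gene nad7 is the one with 4 annotated introns when joinings of separate transcripts are left out. Protein matches named in the annotation of nuclear genes tied ATMG01320 to a complex I subunit, ATMG00180 to cytochrome c maturation and ATMG00560 to a protein with a ribosomal L2 domain. The other 24 identifiers were not paired with a gene, so single tRNA genes and photosynthesis genes could not be told apart. Coordinates and intron lengths were available only for events with a shifted junction or a removal. An intron without a spliced read could not be tied in these ways, so introns tied by them hold spliced reads by selection. As a set, the annotation gives the chloroplast 20 introns within a gene's own stretch of DNA (joinings of separate transcripts left out) in 18 genes, 6 of them tRNA genes, and the table listed 19 in 18 identifiers. For the mitochondrion the annotation gives 18 such introns in 9 genes, and the table listed 18.

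The splice sites of the 3 chloroplast introns with a second junction are shown because most spliced reads there were counted at a junction other than the annotated one. Sequences are from RefSeq, build TAIR10.1, read 5′ to 3′ on the gene's strand, with the intron in capitals and the exon in lower case. The rpl2 intron lies at 84772 to 85453 of the chloroplast genome (minus strand), the rpoC1 intron at 21862 to 22652 (minus strand) and the second clpP intron at 70138 to 70652 (minus strand).
rpl2 donor, annotated: cctacctttgAGTGCGGTTTGA
rpl2 donor, shifted: ctacctttgaGTGCGGTTTGAA
rpl2 acceptor, annotated: GAATCTACTTCAaccgatatgc
rpl2 acceptor, shifted: AATCTACTTCAAccgatatgcc
rpoC1 donor, annotated: atactgcgatGTGTGATTTGAT
rpoC1 donor, shifted: gtatactgcgATGTGTGATTTG
rpoC1 acceptor, annotated: CCCTATCCCAATttttcttttg
rpoC1 acceptor, shifted: GACCCTATCCCAatttttcttt
clpP intron 2 donor, annotated: ccctcacgctTGGCGCCAATGA
clpP intron 2 donor, shifted: ctcacgcttgGCGCCAATGAGT
clpP intron 2 acceptor, annotated: TATTATATCATCagggtaatga
clpP intron 2 acceptor, shifted: TTATATCATCAGggtaatgatc
In rpl2 both sites moved 1 nt downstream, in rpoC1 2 nt upstream and in clpP 2 nt downstream, so the intron kept its length of 682, 791 and 515 nt. For rpl2 and rpoC1 the 20 bases across the joined exons are the same under either junction, so a spliced read carries the same letters whichever junction it was assigned to. For clpP the joined exons differ by 1 base, A11T (the base of the annotated joining first, counted from the 5′ end of the 20 bases below).
clpP joined exons, annotated: ccctcacgctagggtaatga
clpP joined exons, shifted: ccctcacgcttgggtaatga

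Almost all organellar introns in the table were seen mainly in unspliced form. The median level of the 37 retained introns was 97.6% in library 1, 99.6% in library 2 and 99.2% in library 3, against 4.23%, 3.53% and 4% for 43194 nuclear retained introns. Within each library the organellar median was higher by 93.4, 96.1 and 95.2 percentage points, a mean of 94.9 ± 1.35 (SD, n = 3). The organellar median was above the nuclear one in 3 of 3 libraries. The two-sided exact sign-flip permutation test over libraries gave p = 0.25, the smallest p that 3 libraries allow. Of the 37 organellar introns, 30 had a mean level over 90% and 18 over 99%, while 3.89% of the nuclear introns were over 90%. Nuclear introns with at least 1000 reads at their junction in every library had a lower median still, 0.663% ± 0.129 (SD, n = 3). The rule by which the authors counted intronic reads is unknown here, and the absolute levels depend on it. The levels also take spliced and unspliced molecules to have been captured and aligned equally well, which was not tested. This may differ between kinds of gene, and the annotated chloroplast genes with introns include 6 tRNA genes.

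**Figure D1:**
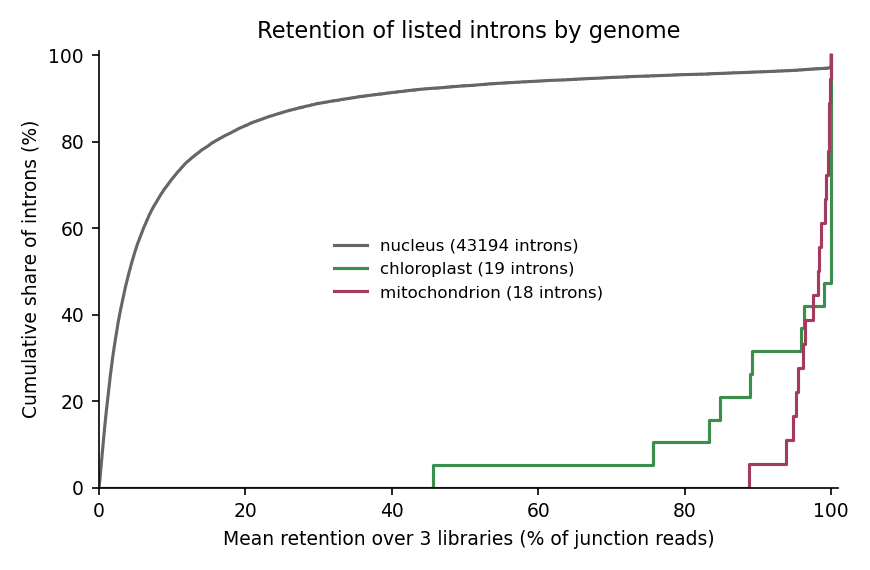
Cumulative share of introns (y axis, %) up to each mean retention level over 3 libraries (x axis, % of junction reads), for 43194 nuclear, 19 chloroplast and 18 mitochondrial introns. The nuclear line rises steeply at low levels, and the organellar lines rise only from 45.7% (chloroplast) and 88.8% (mitochondrion).

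Chloroplast and mitochondrial introns differed in how evenly they were retained. The 19 chloroplast introns had medians of 100%, 100% and 99.963% in libraries 1, 2 and 3, but their mean levels ran from 45.7% to 100%. The 18 mitochondrial introns had lower medians (96.7%, 98.7% and 98.9%) and a narrower range, 88.8% to 99.959%. The chloroplast median was higher in 3 of 3 libraries, by 1.90 ± 1.23 points (SD, n = 3, exact sign-flip permutation p = 0.25, the smallest possible). The annotation gives introns to 6 tRNA genes in the chloroplast and 0 in the mitochondrion. Organelle and kind of gene therefore cannot be told apart in this difference. Mean levels under 90% were found for 6 chloroplast introns and 1 mitochondrial intron.

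**Figure D2:**
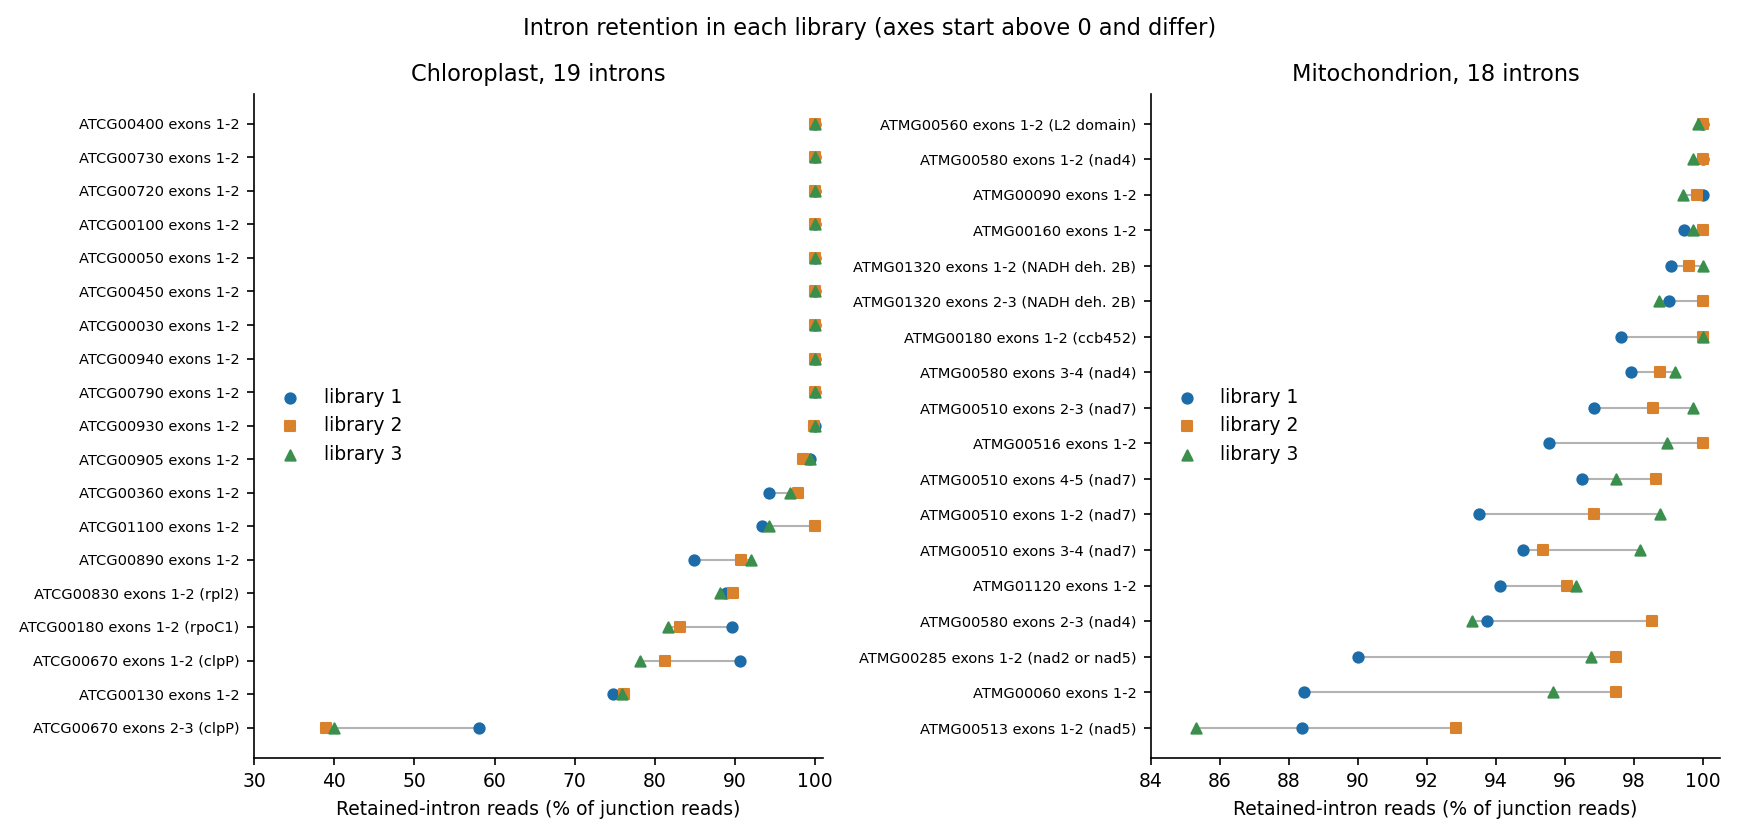
Retained-intron reads (x axis, % of junction reads; the axes start above 0 and differ between panels) for each chloroplast and mitochondrial intron, 1 symbol per library and a grey line from the lowest to the highest library. Most chloroplast introns sit at or near 100%, the second clpP intron lies between 39.0% and 58.1%, and the mitochondrial introns lie between 85.3% and 100%.

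The second intron of clpP was the most spliced of all organellar introns listed. It was retained in 58.1% of 315 reads in library 1, 39.0% of 177 in library 2 and 40% of 315 in library 3. Library 1 stood above the other libraries, which lay close together. The first clpP intron was also highest in library 1, with 90.6%, 81.3% and 78.1% retained, and there library 3 was lowest. ClpP is the catalytic subunit of the chloroplast's main stromal protease.

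The single intron of rpoC1 was retained in 89.6%, 83.2% and 81.6% of reads (357, 119 and 207 reads). Its product is part of the bacterial-type polymerase that transcribes many chloroplast genes. The rpl2 intron varied least of these genes, at 88.9%, 89.8% and 88.2% of 2587, 1785 and 3501 reads. Its product is a protein of the large ribosomal subunit. The exact 95% binomial intervals (Clopper-Pearson) of the rpl2 spliced share, 9.91% to 12.4%, 8.83% to 11.7% and 10.8% to 12.9%, overlap between the libraries. These intervals cover counting error only.

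Among the 15 chloroplast identifiers that were not paired with a gene, 11 had a mean level over 99%. No spliced read was counted in any library for ATCG00030, ATCG00050, ATCG00100, ATCG00400, ATCG00450, ATCG00720 and ATCG00730. The depth behind these zeros differed: ATCG00450 had 8291 reads in all, which allows a spliced share of up to 0.0362%, while ATCG00050 had 92 reads, which allows up to 3.26%. These limits cover counting error only. They take spliced and unspliced molecules to have been captured and aligned equally well, which was not tested. Other unpaired genes with many reads had few spliced ones. ATCG00940 had 2 spliced reads of 24599, ATCG00930 had 1 of 14655 and ATCG00790 had 1 of 6441. ATCG00905 had 7 spliced reads of 847.

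The other 4 unpaired chloroplast genes had spliced reads at a level of several percent or more. ATCG00130 was the most spliced of them, with 74.8%, 76.2% and 75.9% retained in libraries 1, 2 and 3, a range smaller than the counting error of each library. ATCG00890 was retained at 85.0%, 90.7% and 92.0%, with library 1 lowest. ATCG01100 had no spliced read among 78 in library 2 but was retained at 93.4% and 94.3% in libraries 1 and 3. For ATCG01100 a count of 0 among 78 allows a spliced share of up to 3.85%. ATCG00360 was retained at 94.2%, 97.8% and 96.9%. The 11 unpaired identifiers outside the inverted repeat had a median of 100% in every library, and the 4 unpaired pairs inside it had medians of 99.7%, 99.2% and 99.7%.

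Complex I pumps protons from NADH oxidation in the inner mitochondrial membrane, and its plant genes hold most of the mitochondrial introns. In the table, 11 of the 18 mitochondrial introns were assigned to it. The annotation also gives introns to nad1, another complex I gene that was tied to no identifier, so unpaired identifiers may belong to complex I too. Their median level was 96.5%, 98.6% and 98.7%. The 4 introns of ATMG00510 (nad7 by intron number) lay close to each other, with mean levels of 96.4%, 98.4%, 96.1% and 97.6% from the first to the last. Each of these 4 introns was lowest in library 1.

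The 3 introns of nad4 (ATMG00580) covered a wider range within 1 transcript. The first was retained at 100%, 100% and 99.7%, with 1 spliced read among 843. The second was retained at 93.8%, 98.5% and 93.3%, and the third at 97.9%, 98.8% and 99.2%. The nad5 intron of ATMG00513 had the lowest mean level in the mitochondrion, with 88.4%, 92.9% and 85.3% of only 43, 42 and 68 reads. ATMG00285 gave 90%, 97.5% and 96.8% of 60, 40 and 62 reads. At these depths the exact intervals of the spliced share are wide, 3.89% to 25.1% for ATMG00513 and 3.76% to 20.5% for ATMG00285 in library 1. The introns of ATMG01320 were almost fully retained, at 99.1%, 99.6% and 100% for the first and 99.02%, 100% and 98.7% for the second.

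The mitochondrial genes not assigned to complex I spanned a similar range. ATMG00180, tied to cytochrome c maturation, which attaches heme to the protein, was retained at 97.6% of 254 reads in library 1 and had no spliced read among 156 and 297 in libraries 2 and 3. ATMG00560, with the ribosomal L2 domain, had 1 spliced read among 1770. Of the unpaired genes, ATMG00060 was the most spliced, with 88.4%, 97.5% and 95.7% retained of 294, 278 and 484 reads. Library 1 stood apart for ATMG00060. ATMG01120 was retained at 94.1%, 96.1% and 96.3%, and ATMG00516 at 95.6%, 100% and 98.96%. ATMG00090 and ATMG00160 had 7 spliced reads each, among 2341 and 2332.

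Mitochondrial values share reads with a possible second source. For 14 of the 18 annotated mitochondrial introns, the 60 bases around both splice sites have an exact copy on nuclear chromosome 2, where a large insertion of mitochondrial DNA is known. The introns without such a copy were those of cox2 and rps3, the second of nad1 and the fourth of nad5. Reads from the nuclear copy and from the mitochondrion cannot be told apart in these counts, so the mitochondrial levels are uncertain. None of the 20 annotated chloroplast introns had a copy of that kind.

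Few function groups could be compared, because most identifiers were not paired with a gene. Retained introns of complex I had a median of 97.9% ± 1.23 (SD, n = 3), and the introns of the ribosomal protein genes, rpl2 of the chloroplast and ATMG00560 of the mitochondrion, had 94.5% ± 0.438. The difference was 2.06, 3.65 and 4.71 points in libraries 1, 2 and 3, higher for complex I in 3 of 3. With both-site shifts included it was 7.29 ± 2.27 points (SD, n = 3, exact sign-flip permutation p = 0.25, the smallest possible). The size with shifts included depended on what was counted: with 1 value per gene it was 20.0 points, and without ATMG00510 it was 4.64. Retained and shifted levels of the same junction are close to complements, so these sizes depend on which events were listed. For rpl2 the mean levels of 89.0% retained and 10.9% shifted put the median of the gene at 49.95%. Only the values for retained introns alone are free of this. The ribosomal protein group had only 2 genes, whose mean levels of 89.0% and 99.959% lie on either side of most complex I introns. The annotation also gives introns to rps12, rps16 and rpl16 of the chloroplast and rps3 of the mitochondrion. None of these ribosomal protein genes could be tied to an identifier, so the sign with them included is unknown. The genes rpl2, ATMG00580, ATMG00513 and ATMG00285 were tied through shifted spliced junctions, so membership is not independent of the levels compared.

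At 7 introns the table lists a junction at which both sites moved by 1 or 2 nt. Most spliced reads at these introns were counted there: 1431 of 1490 reads (96.0%), with 1358 of 1407 in the chloroplast and 73 of 83 in the mitochondrion. For clpP intron 2 all 429 spliced reads were counted at the shifted junction, whose joined exons in the reference differ from the annotated joining by the base given above. The counts do not show the letters of the reads, so whether the RNA carries that base was not tested. The level of this shifted junction was 41.9%, 61.0% and 60.0% of junction reads in libraries 1, 2 and 3, the complement of the retained share. For rpl2, 876 of 883 spliced reads were at the shifted junction, at 11.1%, 10.03% and 11.7% of junction reads. For rpoC1, 53 of 95 were, at 6.16%, 9.24% and 9.66%. Since these last 2 introns give the same joined letters at either junction, different RNA and different placement of reads cannot be told apart in the split between their junctions.

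The 4 mitochondrial shifts were low in reads. The nad5 intron of ATMG00513 had 18 shifted reads and the ATMG00285 intron 9, and neither had any read at the listed junction. The third nad4 intron had 23 shifted reads of 23, and the second had 23 of 33. The mitochondrial coordinates of the table could not be placed on the reference, whose mitochondrial sequence is of another build, so no sequence is shown for them. Nuclear junctions of the same kind had a median level of 1.21% ± 0.103 (SD, n = 3) over 1500 events.

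**Figure D3:**
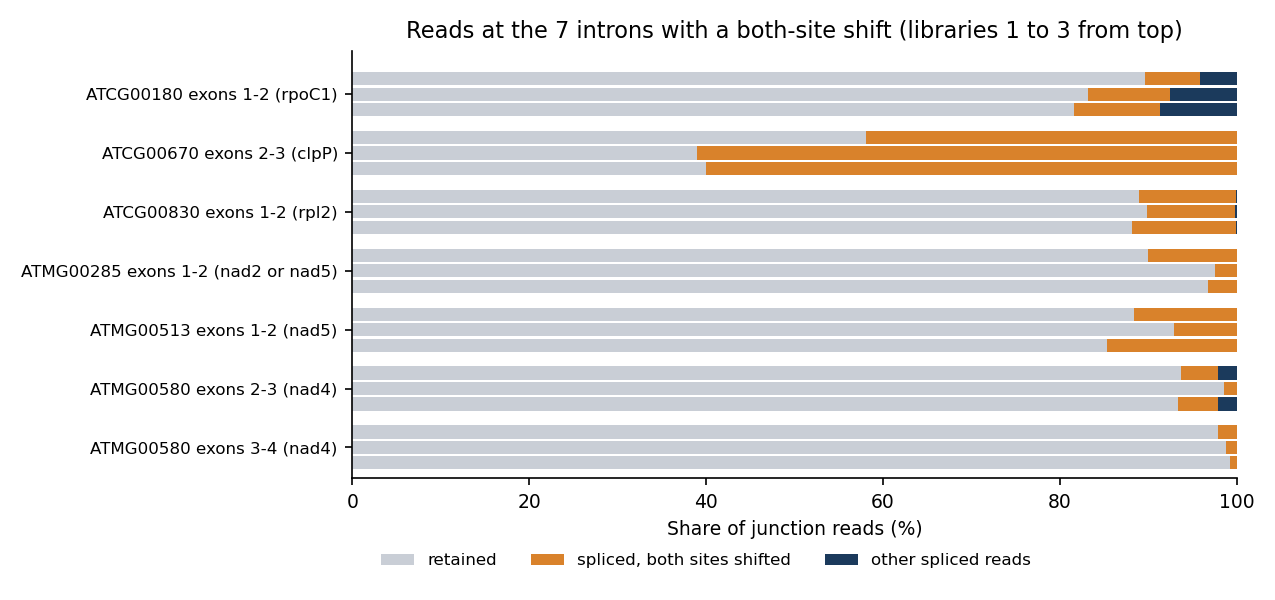
Share of junction reads (x axis, %) that were retained, spliced at the junction with both sites shifted, or otherwise spliced, at 7 introns; the bars of each intron are libraries 1 to 3 from the top. All spliced reads are at the shifted junction for clpP, ATMG00285, ATMG00513 and the third nad4 intron, and rpoC1 has the largest other share, with 42 of 95 spliced reads.

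The ends of organellar introns differ from those of nuclear introns. The letters GTGNG, which start many group II introns, were looked for at the first 5 bases of each annotated intron, on the intron's own strand. They start 13 of 20 annotated chloroplast introns and 9 of 18 mitochondrial introns, against 7.90% of 136303 annotated nuclear introns. No annotated organellar intron ends in AG, while 99.5% of nuclear ones do. Under the annotated sites rpl2 starts AG and ends CA, whereas under the shifted sites it starts GTGCG. The rpoC1 intron goes the other way, starting GTGTG and ending AT under the annotated sites but starting AT and ending CA under the shifted ones. The second clpP intron starts TG and ends TC under the annotated sites, and starts GC and ends AG under the shifted ones.

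Whether levels differed between libraries by more than counting error was tested for every event. A chi-square test of homogeneity over the 3 libraries, with Benjamini-Hochberg adjustment over all 62909 events at 0.05, called 5 of the 49 organellar events. The background was 10.1% of all events, 12.1% of nuclear retained introns and 23.3% of nuclear retained introns with at least 10 retained reads in every library. The organellar count is therefore near or below the background and is no result about these genes. Adjusted only over events with at least 10 alternative reads in every library, 8 of the 40 organellar events that met this minimum were called, against 23.7% of all such events and 27.5% of such nuclear retained introns. The called events, each also called by an exact conditional test with random draws, were both clpP introns (chi-square adjusted p = 0.000814 for the first and 8.74e-05 for the second), the complementary shift at the second (8.74e-05), ATMG00060 (0.000159) and ATMG00180 (0.0463). In all of them library 1 differed from the other libraries, and without library 1 none was called, while 2 of the 49 had an unadjusted p under 0.05. A G test without library 1 also called 0, with 3 under 0.05 unadjusted. The call of ATMG00180 was lost without any 1 library, with adjusted p of 0.0921 without library 2 and 0.293 without library 3.

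Reads summed over all introns of an organelle gave another view of library 1. Summed over the 19 chloroplast introns, spliced reads were 2.30% of junction reads in library 1 (exact 95% binomial interval 2.15% to 2.46%), 3.67% in library 2 (3.33% to 4.03%) and 3.22% in library 3 (3.01% to 3.43%). Over the 18 mitochondrial introns they were 2.54% in library 1 (2.13% to 3.00%), 0.964% in library 2 (0.699% to 1.297%) and 1.33% in library 3 (1.09% to 1.61%). In these sums library 1 had the lowest chloroplast share and the highest mitochondrial share. Intron by intron, the chloroplast showed no such direction: retention was highest in library 1 for 3 of 19 introns and lowest for 4, the latter including ATCG00890, ATCG00360 and ATCG01100. Ties were not counted, and chloroplast introns without a spliced read in any library could show no direction. For the mitochondrion, retention was lowest in library 1 for 12 of 18 introns, in library 3 for 6 and in library 2 for 0. Nuclear introns had their highest retention in library 1 in 42.2% of cases and their lowest there in 28.0%. These sums weight each gene by its reads, and the amounts of the chloroplast genes also differed between libraries, as given next. Their part in the shares was not tested.

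**Figure D4:**
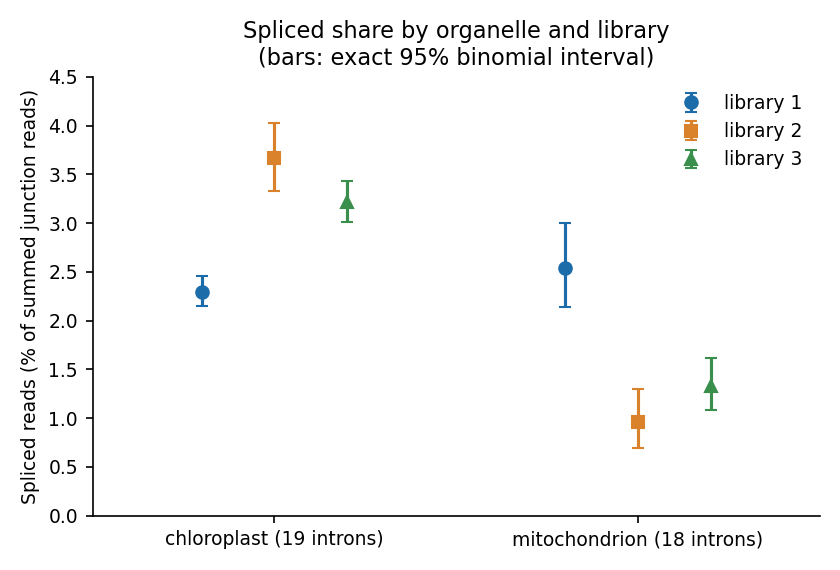
Spliced reads in percent of summed junction reads (y axis) for 19 chloroplast and 18 mitochondrial introns in each library, with exact 95% binomial intervals. Library 1 is lowest for the chloroplast (2.30%) and highest for the mitochondrion (2.54%).

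Library 1 also held more chloroplast reads. The 19 chloroplast junctions took 1059 reads per 1000000 junction reads in library 1, 345 in library 2 and 435 in library 3, a mean of 613 ± 388 (SD, n = 3), and 390 without library 1. Mitochondrial junctions took 155, 134 and 121. The ratio of library 1 to library 2 was 3.07 for the chloroplast and 1.15 for the mitochondrion. In bulk leaf RNA, more organelles or cells of a type, more RNA per organelle and a technical difference between libraries cannot be told apart.

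The excess in library 1 was uneven among chloroplast genes. All 19 chloroplast junctions had their highest value in library 1, with a ratio to library 2 between 1.15 and 8.86 and a median of 3.91, and 13 were over 2. The 18 mitochondrial junctions had ratios of 0.776 to 1.69, with none over 2, and 2.18% of nuclear junctions were. ATCG00400 had the highest ratio, with 11.2, 1.27 and 2.73 reads on the same scale in libraries 1, 2 and 3. ATCG00790 had the lowest, with 58.9, 51.2 and 43.1. The rpl2 junction (74.7, 53.8 and 55.9) was also among the even ones, while ATCG00940, the junction with the most reads, went from 362 to 90.3 and 145.

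**Figure D5:**
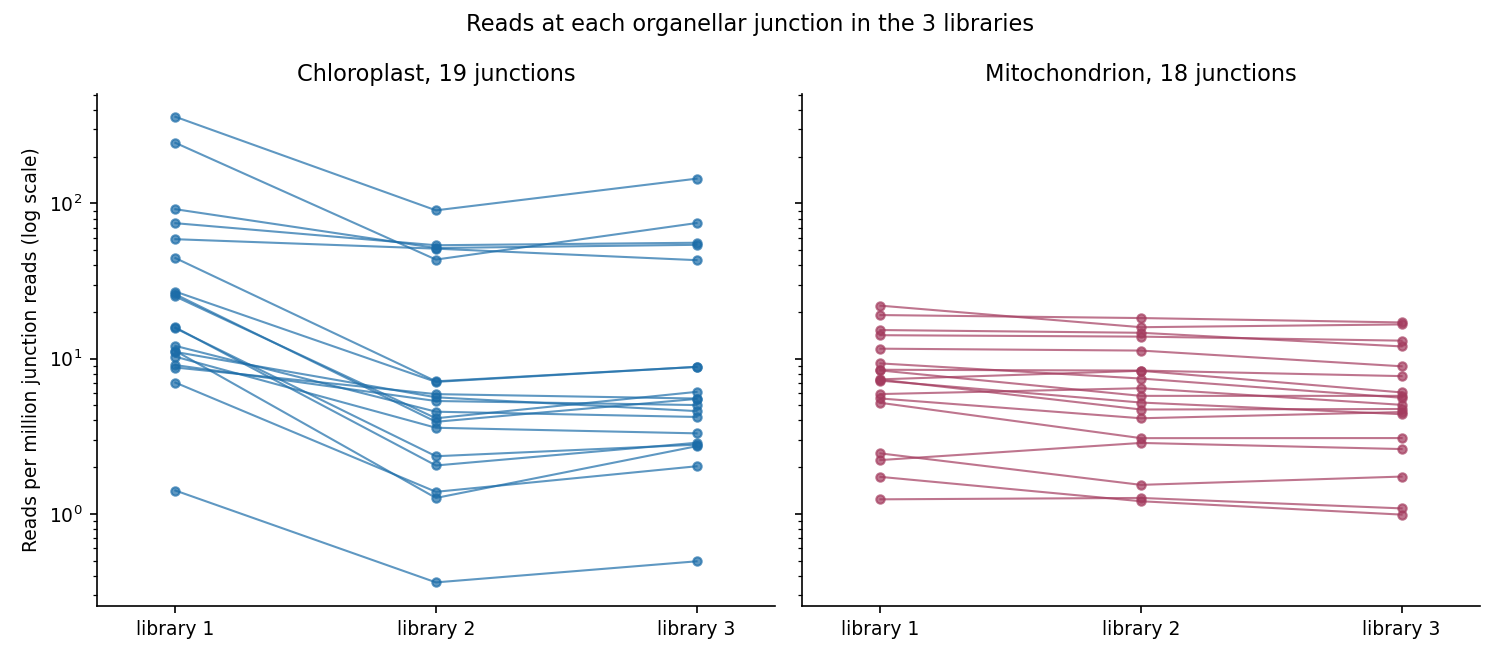
Reads per 1000000 junction reads (y axis, log scale) at each of 19 chloroplast and 18 mitochondrial junctions in libraries 1, 2 and 3, with 1 line per junction. All chloroplast lines are highest in library 1, with ratios to library 2 of 1.15 to 8.86, while mitochondrial ratios run from 0.776 to 1.69 and overlap the lowest chloroplast ones.

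The ribosomal RNAs of the chloroplast showed the same excess in larger form. Reads counted in the 16S gene came to 21500, 2000.5 and 4437 per 1000000 junction reads in libraries 1, 2 and 3, a ratio of 10.7 between libraries 1 and 2. Reads in the 23S gene came to 43132, 6087 and 11579 on the same scale, a ratio of 7.09. Ribosomal RNA forms the core of the ribosome and has no annotated intron in these genes.

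Within these ribosomal RNAs the table lists 5 short removals, each seen in only 3 to 7 reads of 1089485 (16S) or 2422281 (23S). In the 16S gene they cover 101337 to 101626 (290 nt, 3 reads) and 102273 to 102283 (11 nt, 7 reads) of the chloroplast genome. In the 23S gene they cover 105553 to 106365 (813 nt, 4 reads), 105758 to 105903 (146 nt, 5 reads) and 105841 to 106007 (167 nt, 4 reads). Each was listed in both copies of the inverted repeat, whose sequences are identical. All 5 are flanked by a direct repeat of 4 to 8 nt, and a repeat of at least 4 nt was found at 26.7% of 2793 nuclear removals inside exons. The cut of 4 nt equals the shortest repeat among the 5, so all of them pass it by that choice. The median repeat was 5 nt for the chloroplast removals and 2 nt for the nuclear ones. GT and AG ends were looked for on both strands, at every placement that the repeat allows. Only the longest removal had them, against 80.1% of the nuclear ones. It had them on the minus strand, and on the plus strand, which is the transcribed one, it starts CT and ends AC. The ends of the removals with the most reads or the longest repeats are given below, on the plus strand, with the repeat in capitals.
16S, 11 nt removal, left end: tcggattgcaggCTGCAactcgcc
16S, 11 nt removal, right end: gctgcaactcgcCTGCAtgaagcc
23S, 146 nt removal, left end: aaggaGGTAGGGGtgcagagacag
23S, 146 nt removal, right end: gcatcGGTAGGGGagcgttccgcc
23S, 813 nt removal, left end: ttgactggacatCTAGGGGtaaag
23S, 813 nt removal, right end: ggtagagaatacCTAGGGGcgcga
At 0.000256% to 0.00138% of the reads of their gene, these removals were the lowest of all organellar events, and none was called between libraries.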

How the data were processed

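Pooled first true leaves gave 3 RNA-seq libraries of 1 group. The authors deposited whole-number read counts, alternative and other reads for each event and library, with no normalization. Per the submitters' processing notes, CASAVA 1.8.2 and GSNAP were used with TAIR10. The sources used here do not name the tool that classified events. Levels were computed from the counts, with no read minimum, in Python 3.11.15 (numpy 2.4.6, pandas 2.3.3, scipy 1.17.1, matplotlib 3.10.9). Libraries were compared by chi-square tests of homogeneity, tested on simulated data, adjusted over all events, and group medians by exact sign-flip permutation over libraries. The members, gene groups and tests were chosen with earlier results of these data known. Every gene is named, with full values for called events, the 3 highest and 3 lowest of each function group and the 5 with most reads. Function groups were planned from gene symbols; since the reference (TAIR10.1) does not list the identifiers, groups were formed only for genes tied by coordinates, intron length, intron number or protein match, and tRNA and photosynthesis genes were not compared. Totals of retained-intron junctions include both-site shifts. Counts of 0 are given with the share that 3 reads would make.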

Additional observations from a re-analysis of the deposited data

How the results depend on the processing

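Alternatives were a minimum of 10 alternative reads in every library, leaving out each library, counting every listed row, summing reads over libraries, a G test, exact random draws, deep nuclear introns, retained introns only, 1 value per gene and another scaling. With the minimum of 10 reads, 8 organellar events were called and not 5, of 40 that met it, with the adjustment over fewer events (23.7% of all events were called that way); ATMG00510 (second intron), ATCG00890 and ATCG00930 were added. Leaving out 1 library gave 0 to 5 called events, with 0 without library 1. Counting every listed row moved the chloroplast median from 99.988% to 99.765%, because inverted-repeat genes then count in both copies. The median difference between complex I and ribosomal protein genes kept its sign in every alternative run, from 3.48 points (retained introns only) to 20.0 points (1 value per gene). All of these runs but the one with retained introns only include both-site shifts, whose levels are tied to the retained levels of the same junctions. Every run used the same ribosomal protein genes, and other annotated ones with introns could not be tied to an identifier. Leaving out ATMG00510, and the alternatives for the difference between the organelles, were added after the data had been seen. The other differences and medians kept their direction, the organellar minus nuclear difference between 87.5 and 98.1 points. Chloroplast reads per 1000000 junction reads were 390 to 747 with 1 library left out. No paired analysis was possible because there is 1 group, with no second one whose replicate numbers could be matched (differences between gene sets were taken within each library). With 3 libraries no sign-flip test can pass 0.05, and at junctions with few reads the level is loosely set, as for ATMG00513, where 43 reads in library 1 leave a spliced share of 3.89% to 25.1%.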
